A study of Mus musculus with 12 samples.

Results

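Mast cells and basophils store proteases and histamine in their cytoplasmic granules. Followed here through a transcription block in mouse leukemia cells were 8 genes of granule proteases and histamine synthesis. The genes were the chymases Cma1 and Mcpt4, the tryptases Tpsb2 and Tpsab1, the carboxypeptidase Cpa3, the basophil protease Mcpt8, granzyme B (Gzmb) and histidine decarboxylase (Hdc). They were taken by symbol, and 8 of 8 were found among the 24589 genes of the table. They were chosen by measured values of these data, but which values decided is not recorded. It was taken to be the 2 comparisons in which earlier results had named most of them, knockout (KO) against wild type (WT) at 0 h and WT at 8 h against 0 h, and values from those comparisons are given as a description with no test. If other comparisons also weighed in the choice, the p-values given further on are not independent of it.

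Sequencing covered 12 libraries of NRAS/AE9a cells from the mouse, a model of acute myeloid leukemia (AML) named for the oncogenes NRAS and AML1-ETO9a, the latter a truncated form of the fusion of RUNX1 with ETO. The cells were WT or Tet2 KO and received 5 µg/ml actinomycin D, which blocks transcription, and were sampled at 0, 4 and 8 h, giving 6 groups of 2 libraries. Both genotypes grew in RPMI 1640 with the murine cytokines SCF at 50 ng/ml and IL-3 and IL-6 at 10 ng/ml, plus G418 at 1 mg/ml and puromycin at 2 µg/ml. The labels name 1 line of each genotype, so Tet2 status cannot be told apart from any other difference between the lines. Whether both libraries of a group were grown independently is not stated. The p-values therefore reflect the spread between libraries alone, and that spread may be technical.

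Chymases and tryptases are serine proteases, and Cpa3 is a metalloprotease that trims C-terminal residues. They are made as inactive precursors, are activated in the granule, where cathepsin C removes the activation peptide of chymases and granzymes, and are held there by the proteoglycan serglycin. SCF and IL-3 are growth factors of mast cells and basophils. Values are TPM, a length-corrected share of all transcripts of a library, so levels can be compared between genes. A transcript that outlasts the others gains TPM after actinomycin D even if its own amount falls.

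Of the 8 genes, 4 lie on the minus strand of chromosome 14 in the mast cell protease and granzyme cluster, in an interval of 320.8 kb (GENCODE M21, GRCm38, the assembly of mm10). Cma1 spans 55941451 to 55944675, Mcpt4 spans 56059629 to 56062313, Mcpt8 spans 56082166 to 56085273 and Gzmb spans 56258838 to 56262260. The tryptase genes lie on chromosome 17, Tpsb2 at 25366305 to 25369098 on the plus strand and Tpsab1 at 25343245 to 25345562 on the minus strand. Cpa3 lies on chromosome 3 at 20215620 to 20242181 and Hdc on chromosome 2 at 126593667 to 126619299, both on the minus strand. All 8 are protein-coding.

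Promoters of the 4 cluster genes are printed because these close neighbours stood on opposite sides in the comparison of genotypes. Each runs from 250 bases before to 50 bases after the start site on the minus strand, from RefSeq (GRCm38.p6): Cma1 chr14:55944626-55944925, Mcpt4 chr14:56062261-56062560, Mcpt8 chr14:56085148-56085447 and Gzmb chr14:56262285-56262584. Capitals mark GATAA, the core bound by GATA factors, and TGTGGT, the core bound by RUNX proteins, on either strand.
Cma1: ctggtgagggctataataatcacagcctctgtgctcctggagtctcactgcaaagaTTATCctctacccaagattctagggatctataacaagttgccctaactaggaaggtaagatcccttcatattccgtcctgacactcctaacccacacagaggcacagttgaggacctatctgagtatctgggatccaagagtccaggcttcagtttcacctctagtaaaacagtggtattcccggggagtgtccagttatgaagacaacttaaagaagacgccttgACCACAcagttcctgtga
Mcpt4: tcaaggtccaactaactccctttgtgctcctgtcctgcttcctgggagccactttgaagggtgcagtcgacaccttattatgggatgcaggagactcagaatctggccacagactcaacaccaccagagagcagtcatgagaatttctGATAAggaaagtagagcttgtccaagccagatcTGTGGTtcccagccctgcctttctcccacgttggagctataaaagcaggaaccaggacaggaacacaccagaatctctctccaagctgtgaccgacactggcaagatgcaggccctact
Mcpt8: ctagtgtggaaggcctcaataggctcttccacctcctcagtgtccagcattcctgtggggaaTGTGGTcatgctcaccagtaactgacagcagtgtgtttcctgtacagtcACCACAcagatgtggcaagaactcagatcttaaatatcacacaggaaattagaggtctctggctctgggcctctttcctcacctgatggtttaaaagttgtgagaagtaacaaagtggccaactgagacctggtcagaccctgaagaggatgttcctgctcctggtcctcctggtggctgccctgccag
Gzmb: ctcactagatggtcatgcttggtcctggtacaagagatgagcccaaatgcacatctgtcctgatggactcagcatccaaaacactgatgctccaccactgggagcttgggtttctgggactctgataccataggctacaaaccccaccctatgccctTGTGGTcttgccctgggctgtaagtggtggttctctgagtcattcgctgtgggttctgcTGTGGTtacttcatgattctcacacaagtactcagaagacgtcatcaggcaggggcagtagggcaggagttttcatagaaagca

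The promoters of Cma1 and Mcpt4 held GATAA once each, while those of Mcpt8 and Gzmb held none. All 4 held TGTGGT, once in Cma1 and Mcpt4 and 2 times in Mcpt8 and Gzmb. RefSeq promoters were matched for 6 of the 8 genes, without Tpsb2 and Tpsab1. The Cpa3 promoter held 1 of each motif and the Hdc promoter neither. The Gzmb window lies outside the GENCODE span given above, and the Hdc window lies inside its span. RefSeq and GENCODE thus place these starts differently, and the motif counts hold for the RefSeq windows alone. Of 32851 mouse promoters of the same length, 25.4% held GATAA and 16.8% held TGTGGT. A match of letters is a description and does not show that a factor binds.

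WT cells held 25.3 and 26.2 TPM of the chymase Cma1 before the drug, 52.6 and 54.2 after 4 h, and 219 and 229 after 8 h. KO cells held 1.81 and 1.96 TPM before the drug, 3.58 and 3.23 after 4 h, and 9.78 and 13.9 after 8 h. Every WT library was above every KO library, and in both genotypes each later group was above the one before. At 0 h the WT mean was 13.6 times the KO mean, a value from a comparison used to choose the genes.

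The other chymase, Mcpt4, was close to absent from KO cells. WT libraries gave 6.15 and 6.22 TPM before the drug, 14.4 and 11.8 after 4 h, and 40.9 and 54.6 after 8 h. KO libraries listed it at 0 before the drug, and gave 0.20 and 0.28 TPM after 4 h and 0.48 and 0.21 after 8 h. Every WT library was above every KO library. Cma1 stood at 3.65 to 5.35 times Mcpt4 in the 6 WT libraries, and at 11.5 to 17.9 times in KO libraries at 4 h and 20.4 to 66.3 times at 8 h, where the Mcpt4 values below 1 TPM make the ratio imprecise.

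For the tryptase Tpsb2, WT values were 51.6 and 65.6 TPM before the drug, 105 and 98.9 after 4 h, and 335 and 354 after 8 h. KO values were 14.4 and 10.6 TPM before the drug, 14.1 and 13.7 after 4 h, and 36.5 and 34.4 after 8 h. The KO groups at 0 and 4 h overlapped, and all other neighbouring groups in the order of its levels were separate. Tpsab1, the second tryptase, had 0 to 1.44 TPM over the 12 libraries, with 5 at 0, and was not tested. Its neighbouring groups in order of level all overlapped. The coding sequences of the tryptases were identical at 80.6% of 799 aligned bases, against 73.9% to 78.8% for the other pairs among the 6 serine proteases. Bases opposite gaps were left out, and the aligned part was 85.9% of the longer sequence for the tryptases and 64.5% to 91.0% for the other pairs. Cma1 with the tryptase Tpsab1 (77.4%) even scored above Cma1 with the chymase Mcpt4 (76.6%). These identities therefore do not measure how closely the genes are related. How reads that match both tryptases were split is not known, so the low Tpsab1 value is uncertain.

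Cpa3 was by far the most abundant of the 8. WT cells held 911 and 1005 TPM before the drug, 1337 and 1234 after 4 h, and 2260 and 2648 after 8 h. KO cells held 3216 and 3042 TPM before the drug, 4081 and 4394 after 4 h, and 7183 and 6973 after 8 h, when it ranked 19 and 21 among all genes. Here the lowest KO library was above the highest WT library, the reverse of the order of chymases and Tpsb2. Cpa3 made up 75.5% to 82.0% of the summed TPM of the 8 genes in WT libraries and 91.9% to 94.7% in KO libraries. That sum was 1111 and 1230 TPM in WT cells at 0 h and 7581 and 7389 in KO cells at 8 h.

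Mcpt8, the protease used to mark mouse basophils, followed Cpa3. WT libraries gave 50.2 and 53.0 TPM before the drug, 74.0 and 70.7 after 4 h, and 102 and 129 after 8 h. KO libraries gave 155 and 152 TPM before the drug, 204 and 207 after 4 h, and 277 and 295 after 8 h. All 6 groups were separate, with each KO group above each WT group.

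Gzmb, best known from the granules of cytotoxic lymphocytes, had WT values of 0.72 and 0.41 TPM before the drug, 1.07 and 1.14 after 4 h, and 1.37 and 2.43 after 8 h. KO values were 8.16 and 7.57 TPM before the drug, 7.67 and 10.7 after 4 h, and 23.98 and 23.56 after 8 h. Every KO library was above every WT library, and the KO groups at 0 and 4 h overlapped.

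Hdc, the enzyme that makes histamine, took its own course. WT cells held 66.0 and 73.3 TPM before the drug, 64.2 and 62.1 after 4 h, and 33.6 and 34.5 after 8 h. KO cells held 96.8 and 95.3 TPM before the drug, 93.6 and 90.6 after 4 h, and 50.9 and 48.6 after 8 h. All 6 groups were separate, with KO above WT at each time. It was the only one of the 8 whose TPM were lower at 8 h than at 0 h in both genotypes without overlap.

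**Figure D1:**
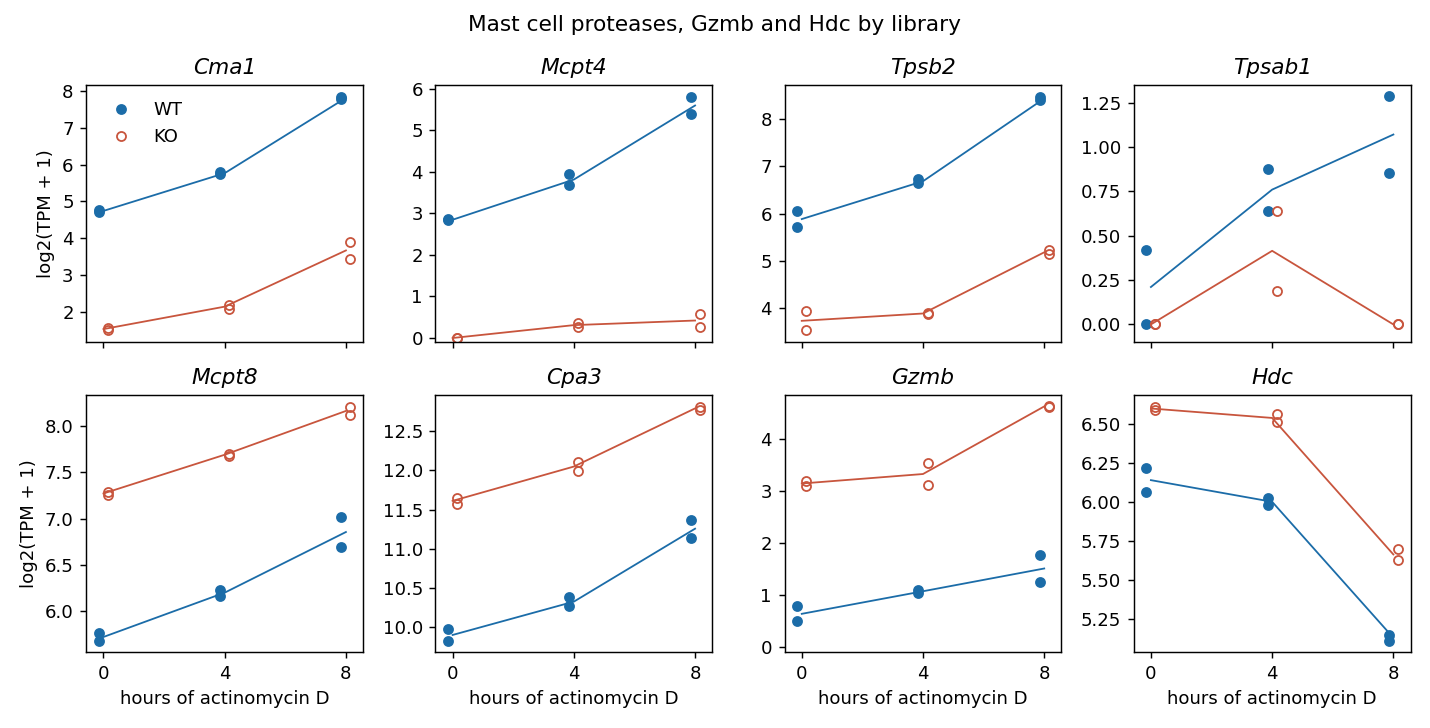
Levels of the 8 genes on the log2(TPM + 1) scale against hours of actinomycin D, 1 panel per gene, with its own vertical range. Filled points are WT and open points KO libraries, 2 per group, and lines join group means; Cma1, Mcpt4 and Tpsb2 run higher in WT, while Mcpt8, Cpa3, Gzmb and Hdc run higher in KO.

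Ratios between the genes within a library do not depend on how the library was scaled. The ratio of Mcpt8 to Cpa3 TPM stayed between 0.0386 and 0.0573 in all 12 libraries, a span of 1.49 times. The ratio of Cma1 to Cpa3 ran from 0.000563 in a KO library at 0 h to 0.0967 in a WT library at 8 h, a span of 172 times, and that of Tpsb2 to Cpa3 spanned 47.6 times. Cma1 to Tpsb2 spanned 5.18 times, from 0.126 to 0.653, and was lower in each KO group than in the WT group of the same time, without overlap. Gzmb to Mcpt8 was 0.00773 to 0.0189 in WT and 0.0376 to 0.0866 in KO libraries.

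**Figure D2:**
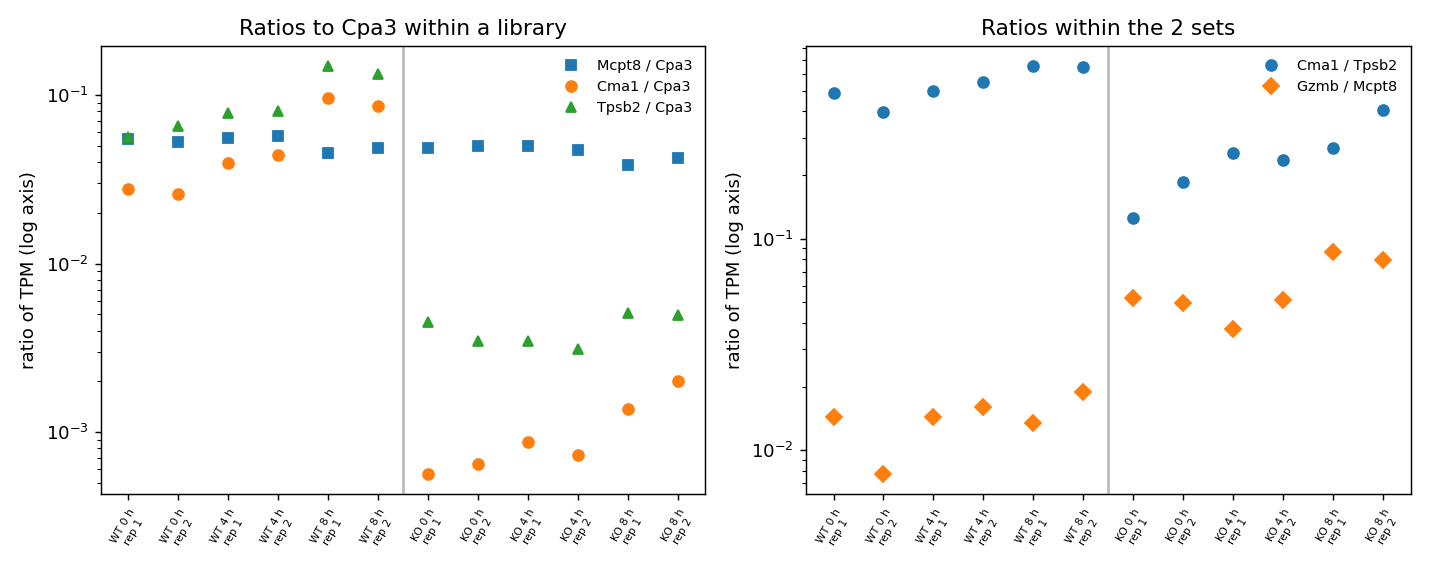
Ratios of TPM within each of the 12 libraries on log axes, with WT libraries left and KO libraries right of the grey line. Mcpt8 to Cpa3 is nearly level across all libraries, while Cma1 to Cpa3 and Tpsb2 to Cpa3 lie far lower in KO libraries.

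The genotypes were next compared at 4 h, with no library in common with the comparisons taken as those used to choose the genes, although the transcripts left at 4 h are in part those present at 0 h. The chymase Cma1 was lower in KO by a log2(TPM + 1) difference of -3.63 ± 0.13 (SE, n = 2 against 2, limma adjusted p = 4.7e-09), with means of 53.4 TPM in WT and 3.40 in KO cells. Tpsb2 was lower by -2.79 ± 0.13 (limma adjusted p = 2.9e-08) and Mcpt4 by -3.50 ± 0.17. Cpa3 was higher by 1.72 ± 0.08 (limma adjusted p = 2.9e-08), Mcpt8 by 1.49 ± 0.09 (2.8e-07), Gzmb by 2.26 ± 0.19 (4.4e-06) and Hdc by 0.54 ± 0.07 (0.000181). So 4 genes were higher and 3 lower in KO with Mcpt4 counted, and Tpsab1 was not tested. Of the 11152 genes tested 38.6% passed in either direction, 24.9% higher and 13.7% lower. The median difference of all tested genes was 0.10. Mcpt4 passed the filter on low values through WT libraries alone, which favours a difference, so no p-value is given for it. The size of its difference rests on the pseudocount, with -5.28 at a pseudocount of 0.1.

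At 8 h, with WT libraries that had been part of the choice, the 7 tested genes stood on the same sides, 4 higher and 3 lower, with no overlap of libraries. Of all tested genes 50.2% were higher and 20.2% lower in that way. Log2 differences were -4.15 ± 0.13 for Cma1, -5.17 ± 0.17 for Mcpt4, -3.25 ± 0.13 for Tpsb2, 1.31 ± 0.09 for Mcpt8, 1.53 ± 0.08 for Cpa3, 3.12 ± 0.19 for Gzmb and 0.53 ± 0.07 for Hdc, beside a median of 0.20 over all genes. The value of Hdc was 0.27 after median-ratio scaling, and that of Mcpt4 was -6.80 at a pseudocount of 0.1. No fold is given for Mcpt4 at 0 h, where KO cells were listed at 0. At 0 h, a comparison used to choose the genes, Tpsb2 stood at -2.15 ± 0.13, Hdc at 0.46 ± 0.07 and Mcpt8 at 1.55 ± 0.09. There too 4 were higher and 3 lower with no overlap, as were 37.7% and 25.1% of all tested genes.

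In KO cells from 4 to 8 h of actinomycin D, most of the proteases gained share. This comparison shares no library with those taken as used for the choice. The change of WT cells over 8 h of the same drug was part of that choice, so the test is not fully independent of it. In both tests the spread was estimated from all 12 libraries. Cma1 rose by 1.53 ± 0.13 on the log2(TPM + 1) scale (n = 2 against 2, limma adjusted p = 1.7e-06), Gzmb by 1.30 ± 0.19 (0.000122) and Tpsb2 by 1.29 ± 0.13 (6.0e-06). Cpa3 rose by 0.74 ± 0.08 (limma adjusted p = 1.1e-05) and Mcpt8 by 0.47 ± 0.09 (0.00104). Hdc fell by 0.88 ± 0.07 (limma adjusted p = 1.5e-06), and Mcpt4, near 0 in these cells, differed by 0.11 ± 0.17 (0.622). Thus 5 of the 7 tested genes were higher and 1 lower, where 52.1% of all tested genes passed. The background was 8.97% higher and 43.1% lower, and the median of all genes was -0.28. After median-ratio scaling, which moves that median to 0.07, 5 were still higher and 1 lower, with Cpa3 at 1.24, Mcpt8 at 0.98 and Hdc at -0.38. Over all genes that scaling changed the split from 1000 higher and 4812 lower to 3208 and 2323.

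**Figure D3:**
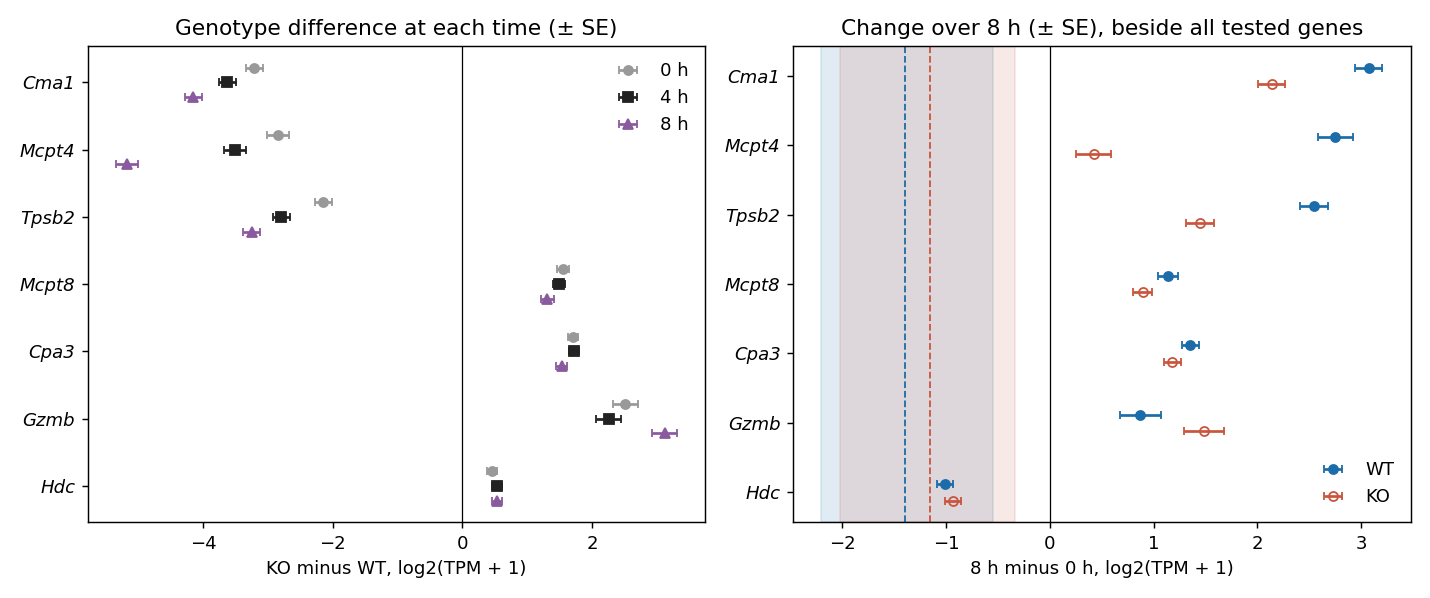
Left, KO minus WT differences in log2(TPM + 1) of the 7 tested genes at 0, 4 and 8 h with SE bars. Right, their 8 h minus 0 h change in WT and KO cells with SE bars, where dashed lines and shaded bands give the median and the middle 50% of all 11152 tested genes, at -1.40 in WT and -1.16 in KO; 6 genes lie to the right of both bands and Hdc within them.

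Over the whole 8 h, 6 of the 7 tested genes had higher TPM at 8 h than at 0 h with no overlap in WT cells, as had 9.98% of all tested genes, and the same number did in KO cells, as had 12.4%. Hdc was lower without overlap in both, as were 82.6% of all tested genes in WT and 79.6% in KO cells. Nothing is read from the WT count, since that comparison was used for the choice, and the KO comparison shares its 0 h libraries with KO against WT at 0 h, the other comparison used. The ratio of the 8 h to the 0 h mean was 8.70 in WT and 6.29 in KO cells for Cma1, and 7.72 in WT cells for Mcpt4. It was 5.88 and 2.84 for Tpsb2, 2.56 and 2.26 for Cpa3, 2.24 and 1.86 for Mcpt8, and 3.36 and 3.02 for Gzmb. The median gene kept a ratio of 0.291 in WT and 0.362 in KO cells. Hdc had 0.488 and 0.518, above that median in both. It was lower at 8 h as a share, but after median-ratio scaling its log2 change was 0.64 in WT and 0.47 in KO cells.

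The steps were also taken apart, as a description alone. The 0 h libraries of both genotypes and the WT 8 h libraries were part of the choice, so nothing is read from these counts and ratios. From 0 to 4 h in WT cells 6 of the 7 were higher at 4 h without overlap, beside 9.59% of all tested genes, and Hdc was lower, beside 77.2%, with the 6 at ratios from 1.34 for Cpa3 to 2.12 for Mcpt4. In KO cells 4 of the 7 were, beside 10.2%, and Hdc was lower, beside 77.4%. Of the 4, Mcpt4 went from 0 to a mean of 0.24 TPM, and outside them Gzmb and Tpsb2 overlapped. Between 4 and 8 h the WT ratios were 4.19 for Cma1, 3.65 for Mcpt4, 3.38 for Tpsb2, 1.91 for Cpa3, 1.72 for Gzmb and 1.59 for Mcpt8, against a median of 0.660 over all genes.

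The series asks how loss of Tet2 bears on mRNA, and the change over 8 h can be set between genotypes, here with no test because 0 h and WT 8 h libraries were part of the choice. For Tpsb2 the KO change was smaller than the WT change by -1.10 ± 0.19 on the log2(TPM + 1) scale, and between -1.05 and -1.44 with other pseudocounts or median-ratio scaling. For Cma1 the difference was -0.94 ± 0.19, but -0.55 at a pseudocount of 0.1 and -1.55 after median-ratio scaling. For Mcpt4 it was -2.33 ± 0.24, with -0.83 at a pseudocount of 0.1 and -3.69 after median-ratio scaling. For Gzmb it was 0.61 ± 0.27, with 0.01 at a pseudocount of 0.1, 0.39 at 0.5 and 1.06 after median-ratio scaling. It was -0.24 ± 0.13 for Mcpt8, -0.18 ± 0.11 for Cpa3 and 0.07 ± 0.11 for Hdc, beside an all-gene median of 0.18. With median-ratio scaling, which brings that median to -0.02, these were -0.49, -0.44 and -0.17, so the sign for Hdc rests on the scaling.

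Transcripts of the 8 genes are short. Their longest coding transcripts run from 836 nt for Mcpt8 to 2392 nt for Hdc, where the median over tested genes was 2882 nt. Their 3′ untranslated regions run from 82 nt for Mcpt8 to 581 nt for Gzmb, where the median was 930 nt. The pentamer ATTTA, the core of AU-rich elements that mark many short-lived mRNAs, occurred in 1 of the 8, once in Cpa3, and in 65.4% of the 10387 tested genes with a 3′ untranslated region. Its part in the gains of share was not tested.

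The cluster on chromosome 14 holds 19 annotated protein-coding genes in an interval that adds 100 kb on either side of these 4, and 9 of the 19 were tested. Next to Mcpt8 lies Ctsg, cathepsin G of myeloid granules, which had means of 1389 TPM in WT and 1542 in KO cells at 4 h, a difference of 0.15 ± 0.07 (limma adjusted p = 0.0903). Mcpt2, between Cma1 and Mcpt4, had 1.54 and 2.93 TPM in WT cells at 8 h and 0 and 0.39 in KO cells. At 4 h it was not called (-0.47 ± 0.30), with at most 0.94 TPM in WT and 0.21 in KO cells. Mcpt2 passed the filter on low values through WT libraries alone, so no p-value is given for it. Gzmc, the neighbour of Gzmb, was too low to test, at no more than 0.30 TPM in WT libraries and 0.30 to 2.03 in KO libraries. Mcpt1, Mcpt9, Cma2, Gzmd, Gzme, Gzmf, Gzmg and Gzmn never passed 0.42 TPM. Outside the protease genes, Sdr39u1 was higher in KO at 4 h by 0.84 ± 0.12 (limma adjusted p = 0.000286) and Khnyn lower by -0.53 ± 0.11 (0.00213).

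**Figure D4:**
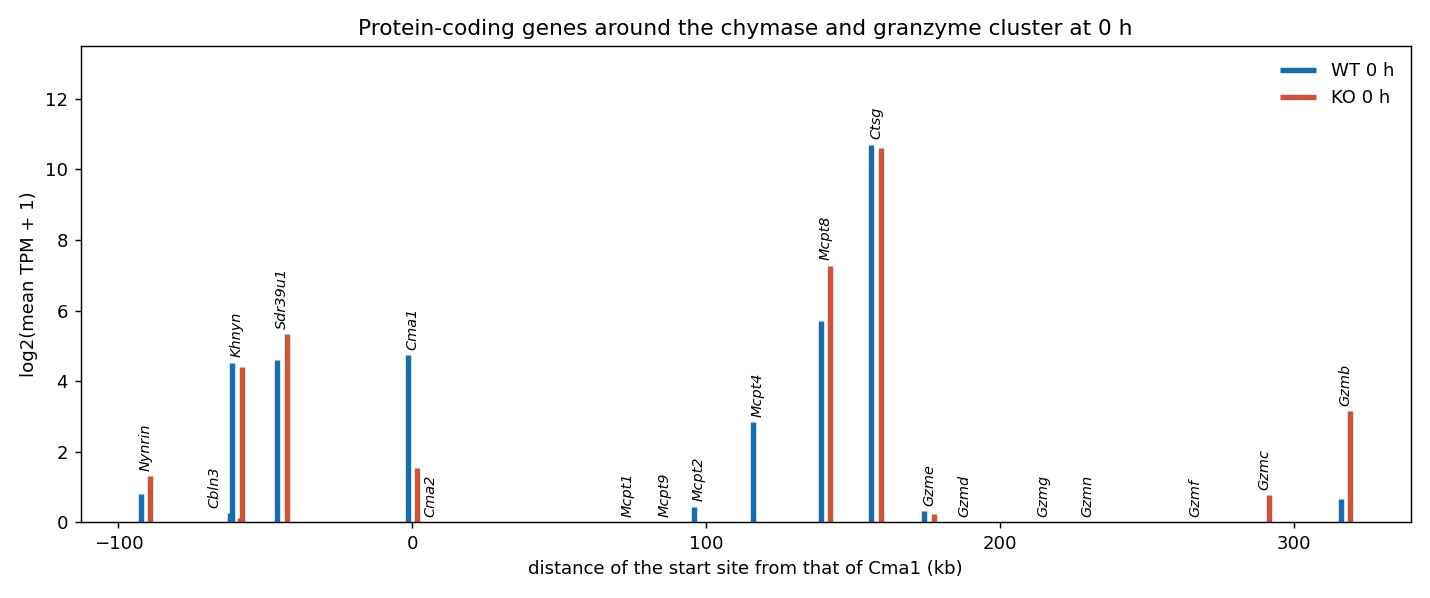
Mean levels at 0 h, as log2(mean TPM + 1), of the 19 protein-coding genes around the cluster against the distance of their start site from that of Cma1 in kb, with WT and KO bars side by side. Cma1 and Mcpt4 are higher in WT, Mcpt8 and Gzmb in KO, and Ctsg between them stands at nearly the same height in both.

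Other genes of granule biology were taken as whole lists, given here by counts beside the shares of all tested genes, which were 24.9% higher and 13.7% lower for KO against WT at 4 h, and 8.97% higher and 43.1% lower for KO at 8 h against 4 h. The lists are small, and no test sets any of them apart from those shares. Of 18 further granule serine proteases 6 were tested, 1 was higher and 2 lower in KO at 4 h, with a median of -0.53. The basophil protease Prss34 was higher by 0.79 ± 0.10 (limma adjusted p = 0.0001), and the neutrophil proteases Elane (-1.79 ± 0.12) and Prtn3 (-0.63 ± 0.06) were lower. From 4 to 8 h in KO cells 2 of these 6 were higher and 3 lower, and Prss34 rose by 0.79 ± 0.10 while Prtn3 fell by 2.39 ± 0.06 and Elane fell from a mean of 22.1 to 1.92 TPM.

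Storage and activation genes had 5 higher and 6 lower of 17 in KO at 4 h, beside 24.9% and 13.7% of all genes, with a median of -0.03. Srgn, which encodes serglycin, was higher by 0.33 ± 0.07. The lysosomal protease Ctsd was lower by -0.29 ± 0.06 and the lysosomal membrane protein Lamp1 by -0.60 ± 0.07, while the granule membrane protein Cd63 differed by 0.09 ± 0.05 (limma adjusted p = 0.195). From 4 to 8 h in KO cells 7 of the 17 were higher and 4 lower, beside 8.97% and 43.1% of all genes. Ctsd rose by 1.18 ± 0.06, Lamp1 by 0.47 ± 0.07, Cd63 by 0.40 ± 0.05 and Srgn by 0.22 ± 0.07. Of protease inhibitors 4 were higher and 1 lower of 7, with Serpinb1a, an inhibitor of neutrophil serine proteases, at 0.65 ± 0.06, Cst7 at 0.29 ± 0.07 and Slpi at -0.67 ± 0.08, while Serpinb6a differed by 0.22 ± 0.09 (limma adjusted p = 0.0649). From 4 to 8 h 3 of these were higher and 2 lower. Serpinb6a rose by 0.49 ± 0.09, Cst7 by 0.42 ± 0.07 and Slpi by 0.26 ± 0.08, while Serpinb1a fell by 0.41 ± 0.06.

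A list of mediator genes had 4 higher and 2 lower of 11 in KO at 4 h, beside 24.9% and 13.7% of all genes. Those tested were lipid mediator genes, the cytokine genes Il4, Il6 and Il13, and Tph1, while the histamine genes Hnmt and Aoc1 were not tested. The higher included Il6 (1.36 ± 0.36, limma adjusted p = 0.0105). The lower included Tph1, which passed the filter on low values through WT libraries alone, with at most 0.16 TPM in KO cells. The phospholipase gene Pla2g4a stood at 0.74 ± 0.12, the lipoxygenase Alox5 at 0.55 ± 0.09 and its partner Alox5ap at -0.29 ± 0.06, while the cyclooxygenase Ptgs1 differed by -0.19 ± 0.07 (limma adjusted p = 0.054). From 4 to 8 h in KO cells 4 were higher, Il4 among them, and 1 lower, beside 8.97% and 43.1%. Il4 reached 1 TPM only in libraries taken at 8 h, which favours a rise, so no p-value is given for it. Its KO means were 0.365 TPM at 4 h and 1.805 at 8 h. Alox5ap rose by 0.43 ± 0.06, Ptgs1 by 0.30 ± 0.07 and Alox5 by 0.22 ± 0.09, and Pla2g4a fell by 0.67 ± 0.12.

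Receptors and transcription factors of mast cells and basophils had 6 higher and 3 lower of 16 in KO at 4 h, with a median of -0.04, beside 24.9% and 13.7% of all genes. The lower included Fcer1a, which passed the filter on low values through WT libraries alone. From 4 to 8 h in KO cells 3 were higher and 5 lower, beside 8.97% and 43.1%. Fcer1g, the signalling chain of Fc receptors, was lower by -0.56 ± 0.06, while Csf2rb, the shared chain of the IL-3 receptor, differed by -0.04 ± 0.07 (limma adjusted p = 0.7) and its paralog Csf2rb2 by 0.22 ± 0.09 (0.0656). The myeloid factor Spi1 differed by -0.21 ± 0.08 (limma adjusted p = 0.0533) and fell from 4 to 8 h by 1.81 ± 0.08. Of the defining surface markers, Kit had 2.80 to 16.0 TPM over the 12 libraries, Fcer1a 0 to 14.7 and Ms4a2 1.26 to 5.25. The summed TPM of the list was 1582 and 1629 in WT and 1318 and 1336 in KO cells at 4 h. Without Fcer1g it was 546 and 551 in WT and 604 and 621 in KO cells, so the lower KO sum rests on that gene. The part of these genes in the protease differences was not tested. In bulk RNA, fewer cells of a type and less RNA per cell cannot be told apart.

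Markers of cytotoxic lymphocytes, the usual source of Gzmb, were low. Of 18 T and NK cell markers, 8 were at 0 in all 12 libraries, among them Cd3d, Cd3g, Ncr1 and Gzma, and the perforin gene Prf1 reached at most 0.07 TPM. Nkg7 was the only one tested, and it was higher in KO at 4 h by 1.74 ± 0.28 (limma adjusted p = 0.000467), alongside Gzmb. Unlike Gzmb it fell from 4 to 8 h in KO cells, by 0.77 ± 0.28 (limma adjusted p = 0.0343). Nkg7 made up nearly the whole summed level of the list, with 4.39 and 5.92 TPM in WT and 18.3 and 20.4 in KO cells at 4 h, and the other markers together gave at most 1.08 TPM in a library. The 5 B cell markers in the table summed to at most 1.02 TPM in a library. Of 13 myeloid blast markers 12 were tested, with 3 higher and 4 lower in KO at 4 h and 2 higher and 7 lower from 4 to 8 h, beside the all-gene shares above. Cd34 was higher in KO at 4 h by 0.76 ± 0.08 and Mpo by 1.96 ± 0.12, while Itgam was lower by -1.17 ± 0.08 and Elane by -1.79 ± 0.12. Ptprc, the leukocyte antigen CD45, had 81.8 to 170 TPM, and Flt3 reached only 0.13 TPM. The part of these differences in those of the 8 genes was not tested.

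Tet2 itself had 10.6 and 10.2 TPM in WT and 6.42 and 5.82 in KO cells at 4 h, lower by -0.68 ± 0.13 (limma adjusted p = 0.00136). A gene-level value does not show which exons were removed, so it checks the labels weakly. Between 9091 and 10825 genes reached 1 TPM in a library.

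The genes whose levels ran most like each protease across the 12 libraries were ranked by Pearson r of log2(TPM + 1) among 7670 genes, as a description, since all points share time and genotype. Cma1 ran with Ifitm3 (r = 0.995), Saa3 (0.991) and Lgals3bp (0.990), and Tpsb2 with Ms4a6d (0.997), Ccl5 (0.993) and Cd300ld (0.991). Mcpt4 ran with Cfb (0.979), Ccl22 (0.977) and Blvrb (0.977). Cpa3 ran with the tropomyosin gene Tpm4 (0.994), Col18a1 (0.989) and Cd59a (0.986), and Mcpt8 with Tpm4 (0.990), Lat (0.984) and Hbb-bt (0.984). Gzmb ran with Padi2 (0.991), Npl (0.990) and Itga2b (0.990), and Hdc with the myeloperoxidase gene Mpo (0.994), Pno1 (0.989) and Mrpl11 (0.984). Among the 8 genes themselves, r was 0.993 for Cma1 with Tpsb2, 0.963 for Cma1 with Mcpt4 and 0.996 for Mcpt8 with Cpa3, but -0.48 for the cluster neighbours Cma1 and Mcpt8.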

How the data were processed

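The authors deposited 1 TPM value per gene and library. Columns total 1000000 within 1, so depth is unknown and values carry no counting interval. STAR, RSEM and mm10 appear in the submitters' processing notes, while versions, annotation and strand setting were not given in the sources used here. Libraries were made from TRIzol RNA by a stranded mRNA protocol, per the labels, with no RNA standard named.

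Deposited TPM were analysed as log2(TPM + 1), a scale on which changes of low genes come out too small. A filter of 1 TPM or more in 2 or more libraries left 11152 of 24589 genes, fitted with limma 3.58.1 in R 4.3.3, with 1 mean per group, 6 residual degrees of freedom, a moderated spread that follows mean expression, and Benjamini-Hochberg adjustment at 0.05. The fit was tested on simulated data. Members and lists were chosen with earlier results of these data known. Tests are given only for KO against WT at 4 h and KO 8 h against 4 h. Named genes were the 8 members, the 4 most abundant tested genes of each other list, cluster neighbours within 100 kb, the 3 genes with the highest r, and Tet2. Others were chosen after their values were seen. Transcripts came from GENCODE M21, the longest coding one per gene, and promoters from RefSeq. Coding sequences were aligned with Biopython 1.88. Alternatives were median-ratio scaling, 2 other filters, pseudocounts of 0.1 and 0.5, no trend, the compared groups alone, the replicate block and leaving out each library.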

Additional observations from a re-analysis of the deposited data

How the results depend on the processing

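All 7 calls for KO against WT at 4 h and the 6 calls for KO at 8 h against 4 h kept their direction and side of the threshold under the 20 alternatives run. The 7 include Mcpt4, which passed the filter on low values through WT libraries alone, so its call is not read as a test. The count over all genes at 4 h ranged from 2887 to 4571 with 1 library left out, and was 4309 in the main fit, 2782 higher and 1527 lower, against 2222 higher and 2044 lower after median-ratio scaling. For KO at 8 h against 4 h it ranged from 4794 to 5972 around 5812. Mcpt4 from 4 to 8 h in KO cells, which was not called, ranged from -0.035 to 0.26 with 1 of the KO 8 h libraries left out, negative without replicate 1. With median-ratio scaling, Hdc changed sign to 0.85 at 4 h and 0.64 at 8 h against 0 h in WT, and to 0.85 and 0.47 in KO cells. At a pseudocount of 0.1 the Mcpt4 difference between genotypes in the 0 to 4 h change became 0.69, because KO cells were listed at 0. With the replicate block 7 and 6 members were called, and 4236 and 5757 genes. The main fit did not pair libraries by replicate number. Deviations of same-numbered libraries correlated at -0.08 to 0.05 over 15 pairs of groups, which does not show how they were grown or prepared. With TPM alone and 2 libraries per group, values below 1 TPM, as for Tpsab1 and for Mcpt4 in KO cells, are imprecise.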

Other observations

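Other genes of basophils and mast cells are given here, chosen after their values were seen. Cd200r3, a receptor of mouse basophils, had WT means of 21.9, 25.3 and 39.3 TPM at 0, 4 and 8 h and KO means of 74.2, 78.2 and 130, and was higher in KO at 4 h by 1.59 ± 0.10 (limma adjusted p = 2.3e-07). Il1rl1, the IL-33 receptor of both cell types, had 6.86 and 7.46 TPM in WT and 21.9 and 22.1 in KO cells at 4 h, a difference of 1.495 ± 0.093 (limma adjusted p = 2.5e-07). Slc18a2, which loads histamine into granules, was higher in KO at 4 h by 0.76 ± 0.22 (limma adjusted p = 0.0177), with means of 3.22 TPM in WT and 6.14 in KO cells.

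Fcer1a, the IgE-binding chain, had 1.31 and 2.43 TPM in WT and 0 and 0.09 in KO cells at 4 h, a difference of -1.43 ± 0.22. At 8 h it had 9.93 and 14.7 against 0.36 and 0.59. It passed the filter on low values through WT libraries alone, which favours a difference, so no p-value is given for it. Kit was lower in KO at 4 h by -0.69 ± 0.13 (limma adjusted p = 0.00117), and Ctsc, the cathepsin C that activates chymases, by -0.59 ± 0.07 (limma adjusted p = 7.4e-05). Gata2, a factor of both lineages, had 23.3 TPM in WT and 60.6 in KO cells at 0 h but only 2.09 and 3.81 at 4 h of actinomycin D. Cebpa, a factor of the basophil side, had 44.9 TPM in WT and 71.0 in KO cells at 0 h, and 3.93 and 4.26 in WT and 3.35 and 3.40 in KO cells at 4 h (-0.22 ± 0.12, limma adjusted p = 0.158). Mitf, a factor of mast cells, went from 6.76 to 1.08 TPM in WT and from 6.40 to 1.02 in KO cells over the same 4 h.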
